A study of Mus musculus with 29 samples.

Results

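Described here are 48 mouse genes for nucleolar factors that build ribosomes, measured by RNA-seq in B cells, lymphomas and fibroblasts with altered Myc. They were chosen by gene symbol from a list of 49 (Noc2l was not analysed here), a rule that uses no measured value, though the list was drawn up with earlier results of these data known. The B cell and tumour files list 21819 genes and the fibroblast files 21675, and all 48 appear in both and passed the filter on low values in every comparison. By role they comprise 2 factors of RNA polymerase I initiation, 4 proteins of box C/D snoRNPs, 4 of box H/ACA snoRNPs, 3 enzymes that modify ribosomal RNA, 4 nucleolar chaperones or scaffolds, 17 small subunit factors and 14 large subunit factors.

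The 29 libraries hold total RNA depleted of ribosomal RNA. The first of the designs follows Eµ-myc mice on C57BL/6, in which a Myc transgene runs from the immunoglobulin heavy chain enhancer and so in the B lineage. It has 3 lymph node tumours of Tg mice, used as cell suspensions without purification (replicates 1, 2 and 3), B cells of 4 Tg spleens (replicates 2, 3, 4 and 5) and B cells of 4 WT spleens of non-transgenic mice (replicates 1, 3, 4 and 6). Spleen B cells were taken on B220 beads from mice 6 to 8 weeks old, and the labels give no age for the mice with tumours. The other design uses 3T9 fibroblasts from embryos of mixed strain, all c-myc flox/flox and infected in culture with MycER, a Myc protein fused to an estrogen receptor domain that 4-hydroxytamoxifen (OHT) switches on. Total RNA came from 4 libraries each at 0 h (ethanol), 4 h, 8 h and 16 h of 400 nM OHT, and 2 more libraries, at 0 h and 4 h, hold newly made RNA caught by a 10 min pulse of 300 µM 4-thiouridine (4sU). Nothing in the labels states that the fibroblast libraries came from separate cultures, so p-values there measure the spread between libraries, which may be technical. Values are FPKM as the authors deposited them, and a fold change is on the log2(FPKM + 0.5) scale. A gene is called changed at a Benjamini-Hochberg adjusted p below 0.05 over all genes tested with limma.

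In the nucleolus RNA polymerase I transcribes a long precursor that holds most of the ribosomal RNAs. Small nucleolar RNAs with their proteins (snoRNPs) guide 2'-O-methylation (box C/D) and pseudouridylation (box H/ACA) of the precursor, while large protein complexes fold and cut it into the small and the large subunit. Many of the genes for these factors are textbook targets of MYC, which binds with its partner MAX to the E-box CACGTG.

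Some libraries stand apart from their labels. The summed level of 6 B cell markers was 16760, 18480 and 1335 FPKM in tumours 1, 2 and 3, between 22150 and 34710 in Tg spleens and between 35420 and 39560 in WT spleens. Tumour 3 was thus low in these markers, and whether it held fewer B cells was not tested. Salivary gland and pancreas markers summed to 2588 to 11850 FPKM in the 3 tumours, at most 9.6 in Tg spleens and at most 63 in WT spleens. Several connective tissue genes also set the tumours apart: Dcn was at 101.7 to 122.9 FPKM in tumours, at most 1.0 in Tg spleens and at most 0.6 in WT spleens, and Col1a1 at 87.2 to 132.7 FPKM in tumours, at most 7.1 in Tg spleens and at most 1.7 in WT spleens. Col1a2, Pdgfrb, Thy1, Cdh5 and Lum were higher in all tumours too. Vim overlapped Tg spleens (1985.6 to 3695.6 FPKM against 2177.6 to 5260.2). Pecam1 was lower in tumours than in WT spleens (349.1 to 813.9 FPKM against 1010.9 to 1183.1). The T cell gene Cd3e was at 38.6 to 143.1 FPKM in tumours, 4.8 to 14.6 in Tg spleens and 15.1 to 24.7 in WT spleens, while the list's sum (809 to 1697 FPKM over all 11 libraries) is mostly Cd2. Cd3d and Cd3g reached higher in tumours but overlapped the WT range, as did Lck (81.9 to 228.7 FPKM in tumours against 159.0 to 212.7 in WT spleens). NK cell markers summed to 76.5 to 135 FPKM in tumours, 35.1 to 297 in Tg spleens and 313 to 591 in WT spleens. Macrophage genes went both ways, with Lyz2 at 1730 to 4149 FPKM in tumours, 94.2 to 756 in Tg spleens and 399 to 1370 in WT spleens, and Csf1r at 121.6 to 176 FPKM in tumours, 366 to 779 in Tg spleens and 744 to 989 in WT spleens. The part of these cells in the tumour results was not tested. In fibroblasts the B cell markers summed to at most 2.53 FPKM and the fibroblast markers to 218 to 303 FPKM. The Rpph1 RNA splits the spleens into a high set (Tg 2 and 3, WT 1 and 3, at least 545353 FPKM) and a low set (Tg 4 and 5, WT 4 and 6, at most 215865 FPKM), and spleen results are given within each set too. In bulk RNA, fewer cells of a type and less RNA per cell cannot be told apart. Myc itself, the gene altered in the mice, was at 2123, 2179 and 1759 FPKM in tumours, 1017, 1275, 2408 and 1525 FPKM in Tg spleens and 227, 273, 215 and 191 FPKM in WT spleens (log2 fold change 3.16 in tumours and 2.72 in Tg spleens over WT, adjusted p = 8.04e-05 and 0.000757).

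The DNA around the start sites shows which members carry the letters that MYC and MAX are known to bind. RefSeq windows (GRCm38.p6) of 250 bases before to 50 after the start were at hand for 42 of the 48 genes, all but Fbl, Npm1, Rrp12, Gnl2, Bop1 and Rrs1. CACGTG, which reads the same on both strands, lay in 10 of these 42 windows (23.8%), in 8.09% of the windows of all 27025 genes and in 11.4% of the 9603 genes tested in the spleen comparison that have a window. The members' matches sat mostly after the start: 7 of 42 windows (16.7%) held one in the 50 bases after it, against 1.83% of the tested genes, while 3 (7.14%) held one before it, against 9.59%. Each match is printed with up to 12 bases on either side, read along the gene and with the motif in capitals, in the order of the gene's later change at 4 h of OHT. A match describes the letters and says nothing of binding.
Imp4: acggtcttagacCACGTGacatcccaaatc
Rrn3: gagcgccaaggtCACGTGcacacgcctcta
Rrn3: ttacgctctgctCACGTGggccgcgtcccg
Nle1: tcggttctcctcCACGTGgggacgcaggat
Wdr43: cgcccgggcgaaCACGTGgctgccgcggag
Pno1: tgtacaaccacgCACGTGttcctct
Utp20: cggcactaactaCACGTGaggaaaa
Tsr1: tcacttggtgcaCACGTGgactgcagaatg
Pes1: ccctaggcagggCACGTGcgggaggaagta
Nop2: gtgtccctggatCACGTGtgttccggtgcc
Ltv1: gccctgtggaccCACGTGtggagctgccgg

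Distances are those of the motif's first base along the gene, with the start site counted as base 1 after it. The Imp4 window is chr1:34439696-34439725 on the plus strand, 121 bases before the start. The Rrn3 windows are chr16:13780472-13780501 on the plus strand, 215 bases before the start and chr16:13780639-13780668 on the plus strand, 48 bases before the start. The Nle1 window is chr11:82908355-82908384 on the minus strand, 24 bases after the start, and that of Wdr43 is chr17:71616220-71616249 on the plus strand, 18 bases after the start. The Pno1 window is chr11:17211540-17211564 on the minus strand, 38 bases after the start, and that of Utp20 is chr10:88826765-88826789 on the minus strand, 38 bases after the start. The Tsr1 window is chr11:74898092-74898121 on the plus strand, 25 bases after the start, and that of Pes1 is chr11:3963965-3963994 on the plus strand, 3 bases after the start. The Nop2 window is chr6:125131811-125131840 on the plus strand, 60 bases before the start, and that of Ltv1 is chr10:13193092-13193121 on the minus strand, 29 bases after the start. Rrn3, whose protein recruits RNA polymerase I to its promoter, is the member with 2 matches, and the 250 bases before its start (chr16:13780449-13780698, plus strand) show both in capitals.
Rrn3: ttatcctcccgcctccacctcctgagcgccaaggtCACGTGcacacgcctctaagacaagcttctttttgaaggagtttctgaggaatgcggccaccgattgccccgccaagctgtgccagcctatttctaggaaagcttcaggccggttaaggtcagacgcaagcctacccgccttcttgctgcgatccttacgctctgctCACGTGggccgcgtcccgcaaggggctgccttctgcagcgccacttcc

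In spleen B cells of Tg mice the ribosome biogenesis genes were higher as a group. Of 48, 40 rose and 0 fell against WT spleens, and the median log2 fold change was 0.85, or 1.80-fold, where the median over all 14021 genes tested was -0.04. The background share of genes called was 15.7% higher and 12.2% lower. In 41 members every Tg library lay above every WT library, which held for 16.9% of all genes. The 18 members that were at least 2-fold higher include all 4 box H/ACA proteins, the chaperone Npm1 and the large subunit factors Rrp1b and Gnl3, and 1 of them, Ncl, was not called. Over all genes the 90th percentile of log2 fold change was 0.91. All 48 log2 fold changes were above 0, from 0.24 for Utp3 to 1.79 for Rrp1b. Within the high Rpph1 set 25 members were called with a median of 0.65, where 908 of 14202 genes were higher. Within the low set 35 were called with a median of 1.11, where 1960 of 14263 genes were higher. Without WT spleen 1 the count was 25, beside 1425 of 14244 genes higher. Leaving out any other library gave 29 to 44 members, beside 1341 to 2684 genes higher.

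**Figure D1:**
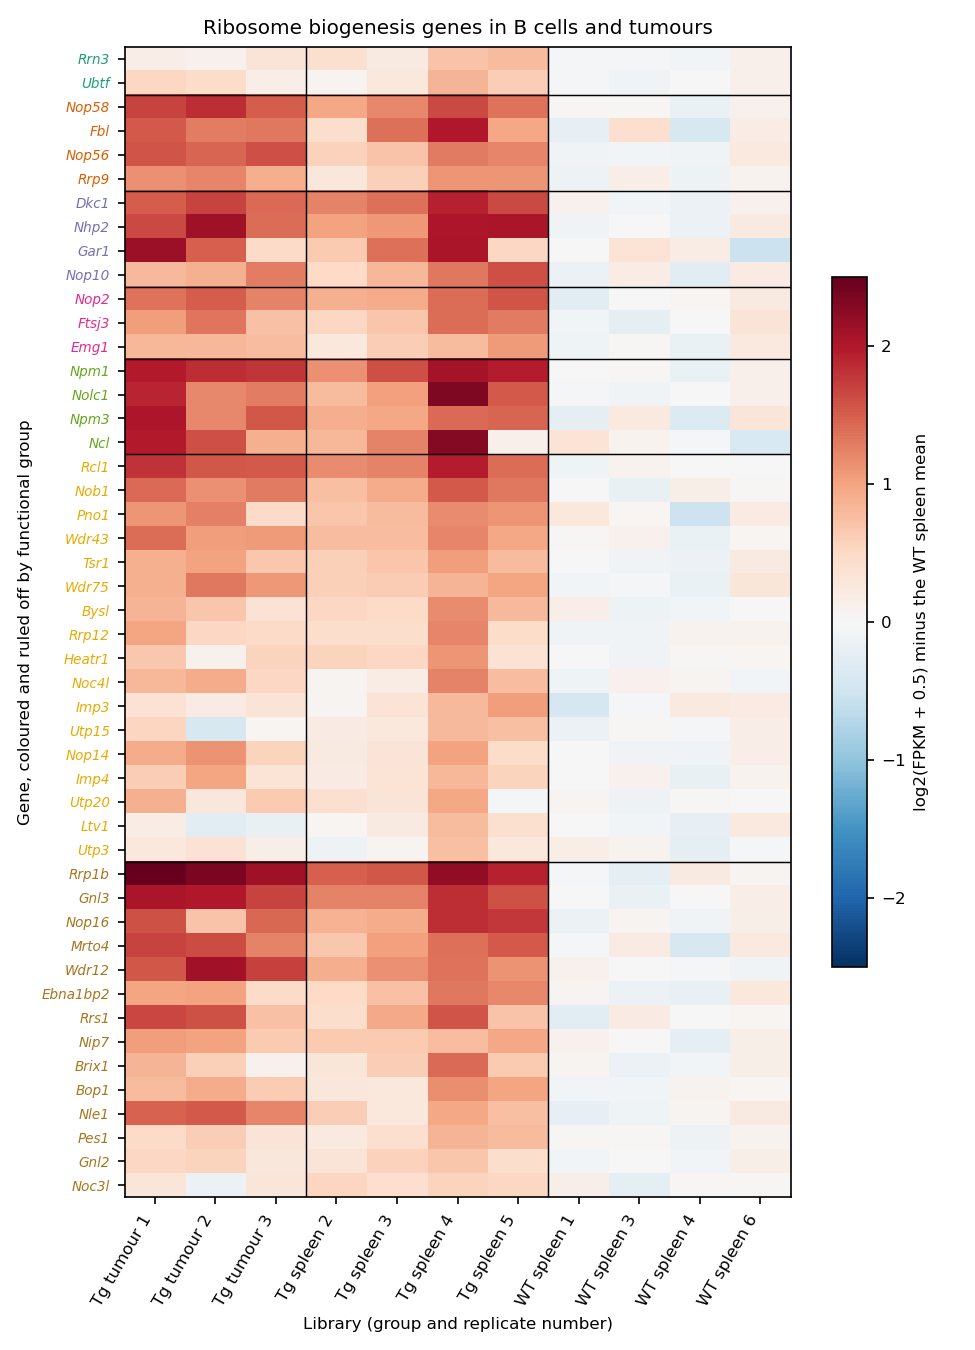
Log2(FPKM + 0.5) of the 48 genes (rows, ruled off by role) in the 11 B cell and tumour libraries (columns), as the difference from the WT spleen mean (colour). Tg spleen 4 has the highest median difference (1.23) and Tg spleen 2 the lowest of the Tg libraries (0.54).

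The 2 factors that start RNA polymerase I transcription had the lowest median of the 7 roles (0.49). Rrn3 had 319, 281, 395 and 417 FPKM in Tg spleens, against 235, 233, 230.1 and 263 FPKM in WT spleens (log2 fold change 0.54, SE 0.15, adjusted p = 0.0238). The Tg range lay above the WT range, and this call was lost in 7 of 20 alternative analyses. Ubtf had 553, 638, 956 and 809 FPKM in Tg spleens, against 518, 497, 531 and 575 FPKM in WT spleens. Ubtf, which binds ribosomal DNA as an architectural factor, did not pass the test (log2 fold change 0.45, SE 0.18, adjusted p = 0.0825), and Tg spleen 2 fell inside the WT range.

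All 4 box C/D proteins rose. The core proteins Nop58 and Nop56 and the methyltransferase fibrillarin (Fbl) form the particle, and Rrp9 belongs to the particle of U3, the snoRNA needed for early cleavages. Nop58 had 1129.7, 1333, 1814 and 1489 FPKM in Tg spleens, against 593, 593, 514 and 624 FPKM in WT spleens (log2 fold change 1.29, SE 0.17, adjusted p = 0.00213). Each Tg library held more than the highest WT library. Rrp9 had 230.2, 286, 402 and 406 FPKM in Tg spleens, against 172, 209.8, 173 and 200.1 FPKM in WT spleens, the smallest change of the 4 (log2 fold change 0.78, SE 0.19, adjusted p = 0.0167). Fbl averaged 307 ± 141 FPKM in Tg spleens and 127 ± 32.5 FPKM in WT spleens (SD, n = 4 each; log2 fold change 1.20, adjusted p = 0.0202), and Nop56 averaged 1313 ± 319 and 668 ± 77.9 FPKM (log2 fold change 0.95, adjusted p = 0.00789).

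All 4 box H/ACA proteins rose by at least 2-fold, with a group median of 1.34. Dkc1 is the pseudouridine synthase, also part of telomerase, and Nhp2, Gar1 and Nop10 are its partners. Dkc1 had 677, 745, 1081 and 893 FPKM in Tg spleens, against 307, 273, 257 and 306 FPKM in WT spleens (log2 fold change 1.55, SE 0.16, adjusted p = 0.0013). The groups were far apart, with the lowest Tg library above 2 times the highest WT library. Nop10 had 766, 952, 1351 and 1657 FPKM in Tg spleens, against 487, 615, 451 and 622 FPKM in WT spleens (log2 fold change 1.07, SE 0.24, adjusted p = 0.0123). Nhp2 reached a log2 fold change of 1.54 (adjusted p = 0.00416) and Gar1 1.14 (adjusted p = 0.029). Gar1 was the lowest member in Tg spleen 5, and its call was lost in 7 of 20 alternatives.

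The 3 enzymes that modify ribosomal RNA rose as well. Nop2 is a cytosine methyltransferase of the large subunit RNA, Emg1 a pseudouridine methyltransferase of the small subunit RNA and Ftsj3 a 2'-O-methyltransferase. Nop2 had 539.5, 555, 763 and 865 FPKM in Tg spleens, against 242, 290.1, 299.7 and 337 FPKM in WT spleens (log2 fold change 1.20, SE 0.18, adjusted p = 0.00351). Emg1 had 886, 1133, 1284 and 1558 FPKM in Tg spleens, against 687, 762, 661 and 877 FPKM in WT spleens (log2 fold change 0.68, SE 0.19, adjusted p = 0.0256). Both sets of Tg values lay above all WT values, though by little for Emg1, whose lowest Tg value is 886 FPKM and whose highest WT value is 877 FPKM. Ftsj3 averaged 887 ± 260.4 FPKM in Tg spleens and 442 ± 76.1 FPKM in WT spleens (log2 fold change 0.97, adjusted p = 0.0124).

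Among chaperones and scaffolds 3 of 4 rose. Npm1 (nucleophosmin), the most abundant member in every B cell and tumour library, is a histone and ribosomal protein chaperone of the granular nucleolus. Npm1 had 3691, 5122, 7072 and 6521 FPKM in Tg spleens, against 1665, 1711, 1503 and 1839 FPKM in WT spleens (log2 fold change 1.70, SE 0.22, adjusted p = 0.00219). Every Tg library held at least 2 times the FPKM of any WT library. Ncl (nucleolin) binds the nascent precursor, and it was the most uneven member. Ncl had 951, 1271, 2645 and 582 FPKM in Tg spleens, against 681, 565, 520.3 and 410 FPKM in WT spleens (log2 fold change 1.12, SE 0.39, adjusted p = 0.0546). Tg spleen 5 was inside the WT range and Tg spleen 4 far above it, and the test was not passed. The scaffold Nolc1 (log2 fold change 1.42, adjusted p = 0.00791) and the chaperone Npm3 (log2 fold change 1.19, adjusted p = 0.00408) both rose.

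The small subunit factors were the most mixed group, with 11 of 17 called and a median of 0.63. Rcl1, which takes part in the cleavage that separates the small subunit RNA, led the group. Rcl1 had 364, 378, 618 and 417 FPKM in Tg spleens, against 149, 169.6, 161 and 158 FPKM in WT spleens (log2 fold change 1.44, SE 0.17, adjusted p = 0.00169). Nob1, the nuclease that makes the 3' end of the small subunit RNA, followed (log2 fold change 1.13, adjusted p = 0.00351), then its partner Pno1 (log2 fold change 0.94, adjusted p = 0.0083), the U3 processome protein Wdr43 (log2 fold change 0.93, adjusted p = 0.00351) and Tsr1 (log2 fold change 0.78, adjusted p = 0.00522), which acts late on the small subunit. The other members called were Wdr75, Bysl, Rrp12, Heatr1, Utp15 and Imp4, with log2 fold changes of 0.48 to 0.76. Calls of Imp4 and Utp15 were lost in 13 and 12 of 20 alternatives.

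The 6 small subunit factors that were not called all had positive values. Utp3 had 222, 253, 408 and 292 FPKM in Tg spleens, against 272, 257, 206 and 238 FPKM in WT spleens, with the groups overlapping (log2 fold change 0.24, SE 0.19, adjusted p = 0.354). Utp3, Utp20, Nop14, Noc4l and Imp3 belong to the small subunit processome, and Ltv1 accompanies the late small subunit to the cytoplasm. The others were Ltv1 (log2 fold change 0.36, adjusted p = 0.137), Utp20 (log2 fold change 0.42, adjusted p = 0.126), Nop14 (log2 fold change 0.51, adjusted p = 0.0534), Imp3 (log2 fold change 0.56, adjusted p = 0.0941) and Noc4l (log2 fold change 0.57, adjusted p = 0.0973). Nop14 was among them although its 4 Tg values, from 218 FPKM, lay above its 4 WT values, up to 208 FPKM. In the remaining 5 the lowest Tg library fell within the WT range.

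All 14 large subunit factors rose, from 0.51 to 1.79 on the log2 scale. Rrp1b, a nucleolar protein of the large subunit precursor, had the largest change of the 48. Rrp1b had 204, 211, 335 and 274 FPKM in Tg spleens, against 69.3, 60.4, 84.4 and 75.6 FPKM in WT spleens (log2 fold change 1.79, SE 0.18, adjusted p = 0.0013). The lowest Tg library held above 2 times the highest WT library. Gnl3 (nucleostemin), a GTPase of the nucleolus abundant in stem and tumour cells, followed. Gnl3 had 884, 880.1, 1340.3 and 1117 FPKM in Tg spleens, against 376, 334, 367 and 416 FPKM in WT spleens (log2 fold change 1.48, SE 0.16, adjusted p = 0.00137). Nop16 (log2 fold change 1.35, adjusted p = 0.0046), Mrto4 (log2 fold change 1.16, adjusted p = 0.00573), Wdr12 (log2 fold change 1.14, adjusted p = 0.00134) and Ebna1bp2 (log2 fold change 0.94, adjusted p = 0.00945) were next. Wdr12 works in 1 complex with Pes1 and Bop1 (PeBoW), and these partners were lower in the list, at 0.57 and 0.67 (adjusted p = 0.023 and 0.0391). Noc3l had 171, 159, 174 and 169.5 FPKM in Tg spleens, against 132, 102, 122 and 119.9 FPKM in WT spleens, the smallest change of the group and with the tightest Tg values (log2 fold change 0.51, SE 0.12, adjusted p = 0.0143). Rrs1, Nip7, Brix1, Nle1 and Gnl2 lay between 0.51 and 0.92. The call of Bop1 was lost in 11 of 20 alternatives, and those of Pes1 and Brix1 in 6 each.

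In lymph node tumours most of the 48 genes were higher than in WT spleens too. Against WT spleens 39 of 48 rose and 0 fell, where 20.3% of 14758 genes were higher and 17.7% lower. The median was 1.01 (2.02-fold) beside 0.05 over all genes. In 41 members all 3 tumours lay above all 4 WT spleens, against 24% of genes, and 24 members were at least 2-fold higher. Changes of this size were common in tumours, as the 90th percentile of log2 fold change over all genes was 1.67. Without tumour 3, the library poor in B cell markers, 41 members were called with a median of 1.13, where 3466 of 15126 genes were higher. Both comparisons share the WT spleens. Their called members had 35 in common, 5 were called only for Tg spleens (Rrn3, Utp15, Heatr1, Noc3l and Brix1), 4 only for tumours (Ncl, Nop14, Utp20 and Noc4l) and 4 in neither (Ubtf, Utp3, Ltv1 and Imp3).

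By role, the box C/D, box H/ACA, modification and chaperone groups were called in full, as 4 of 4, 4 of 4, 3 of 3 and 4 of 4, and small and large subunit factors as 12 of 17 and 12 of 14. Rrp1b had 424, 369 and 312 FPKM in the 3 tumours, against 69.3, 60.4, 84.4 and 75.6 FPKM in WT spleens (log2 fold change 2.34, SE 0.17, adjusted p = 0.000106). Each tumour was at least 3 times the highest WT library. Gnl3 had 1531, 1481 and 1196 FPKM in tumours, against 376, 334, 367 and 416 FPKM in WT spleens (log2 fold change 1.91, SE 0.15, adjusted p = 0.000146). Wdr12 had 366, 537 and 411 FPKM in tumours, against 135, 125, 123 and 118 FPKM in WT spleens (log2 fold change 1.78, SE 0.16, adjusted p = 0.000208). Its PeBoW partners again changed less, Bop1 by 0.79 and Pes1 by 0.47 (adjusted p = 0.00271 and 0.0216). Npm1 had 6587, 6000.2 and 5818 FPKM in tumours, against 1665, 1711, 1503 and 1839 FPKM in WT spleens (log2 fold change 1.87, SE 0.18, adjusted p = 0.00027). Ncl, uneven in the Tg spleens, was above the WT range in all 3 tumours, at 2119, 1639.7 and 998 FPKM (2.83-fold the WT level, adjusted p = 0.00486). Nhp2 (log2 fold change 1.72, adjusted p = 0.000509), Nop58 (log2 fold change 1.69, adjusted p = 0.000241) and Rcl1 (log2 fold change 1.64, adjusted p = 0.000129) rose over 3-fold.

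The 9 members not called for tumours include both initiation factors. Rrn3 had 270.1, 260 and 299 FPKM in tumours, overlapping the WT values given above (log2 fold change 0.20, adjusted p = 0.229), and Ubtf had 763, 727 and 598 FPKM (log2 fold change 0.39, adjusted p = 0.0659). Ltv1 had 249, 184 and 193 FPKM in tumours, against 222, 211, 190.3 and 262 FPKM in WT spleens, and is the single member with a value below 0 (log2 fold change -0.09, SE 0.17, adjusted p = 0.706). These groups overlapped. Utp15 (log2 fold change 0.06, adjusted p = 0.858), Noc3l (log2 fold change 0.15, adjusted p = 0.522), Utp3 (log2 fold change 0.26, adjusted p = 0.19), Imp3 (log2 fold change 0.29, adjusted p = 0.24), Heatr1 (log2 fold change 0.45, adjusted p = 0.0588) and Brix1 (log2 fold change 0.52, adjusted p = 0.0656) make up the rest. Tumour 2 had the lowest value of the 3 in Utp15 (129.6 FPKM), Noc3l (106 FPKM), Heatr1 (384 FPKM) and Ltv1 (184 FPKM).

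**Figure D2:**
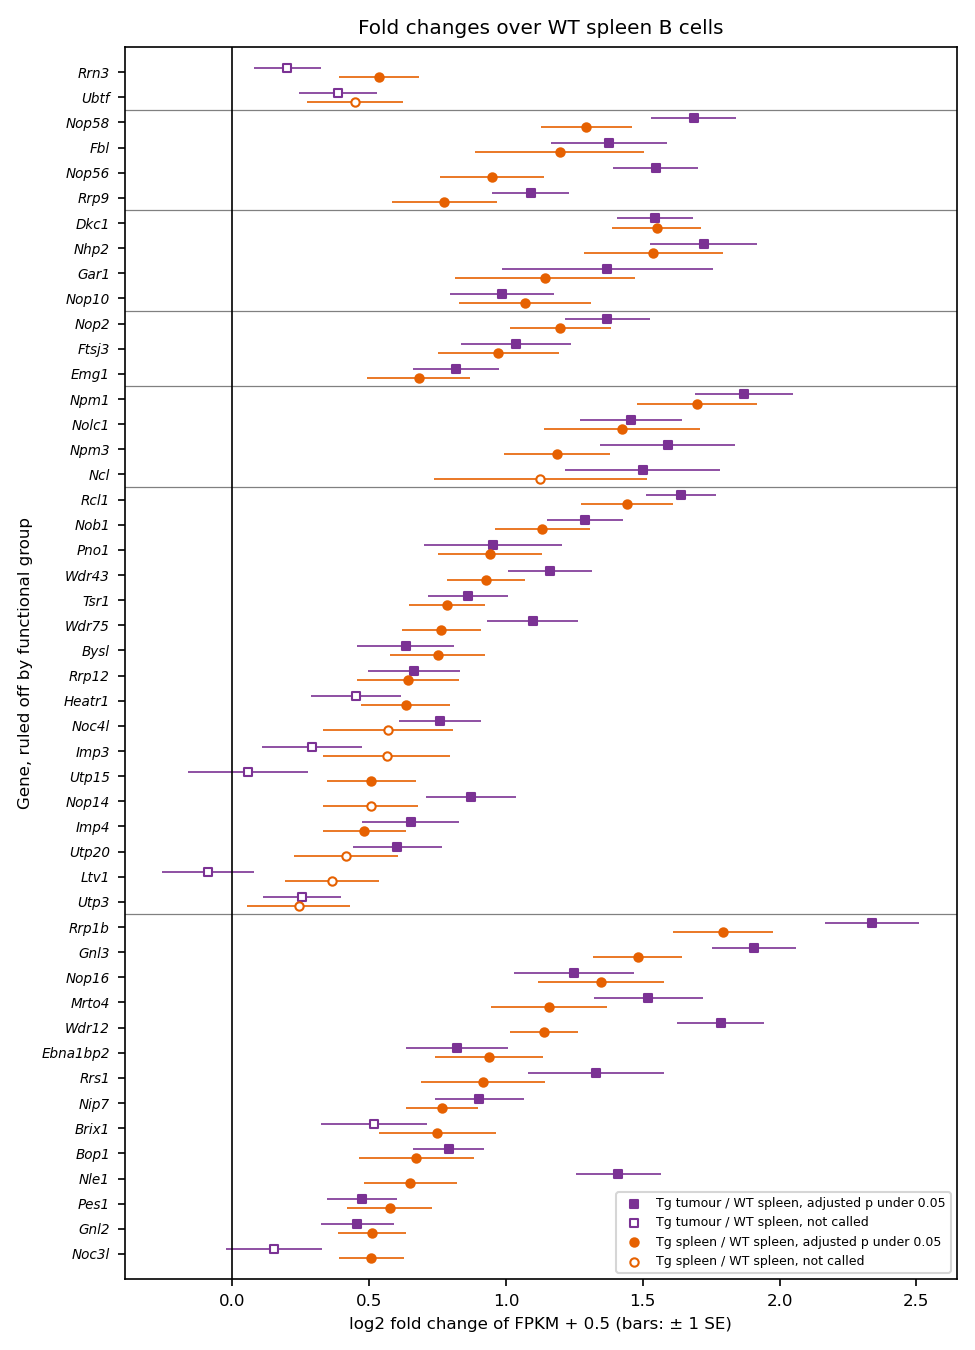
Log2 fold change of FPKM + 0.5 with its SE (horizontal axis) for each of the 48 genes (rows by role), in Tg tumours (squares) and Tg spleens (circles) over WT spleens, filled where adjusted p is below 0.05. Rrp1b is farthest to the right in both, and Ltv1 in tumours is the 1 point left of 0.

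Tumours and Tg spleens were not told apart by these genes. Of 48 members 0 were called in either direction, where 3.56% of 14692 genes were higher and 2.39% lower in tumours, and 4 members (8.33%) had an unadjusted p under 0.05, against 23.2% of all genes. The median log2 fold change was 0.15. Nle1, a factor of the maturing large subunit, had the largest difference, with 302, 318 and 255 FPKM in tumours, against 168, 130.4, 214 and 183 FPKM in Tg spleens (log2 fold change 0.76, SE 0.21, adjusted p = 0.0692). The groups did not overlap for Nle1, Wdr12 (log2 fold change 0.65, adjusted p = 0.0976) and Nop56 (log2 fold change 0.60, adjusted p = 0.186), higher in tumours, nor for Noc3l, at 146, 106 and 146 FPKM in tumours, against 171, 159, 174 and 169.5 FPKM in Tg spleens (log2 fold change -0.35, adjusted p = 0.278). Over all genes 11.8% lay wholly above and 10.6% wholly below the Tg spleens in the 3 tumours. A p that misses the threshold does not show that the groups were equal.

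The level of the members by library is set here beside Myc, genes of dividing cells and Rpph1. The median log2 difference of the 48 from their WT mean was 1.04, 1.09 and 0.72 in tumours 1, 2 and 3, 0.54, 0.69, 1.23 and 0.97 in Tg spleens 2, 3, 4 and 5, and between -0.06 and 0.13 in WT spleens. Tg spleen 4, the highest, also had the most Myc (2408 FPKM) and the largest sum of 10 dividing-cell markers (11630 FPKM), and Tg spleen 2, the lowest, had the least Myc (1017 FPKM) and the smallest sum (2967 FPKM) of the Tg libraries. The 4 Tg spleens had the same order in all 3 measures, and the lower pair (2 and 3) is the high Rpph1 set while the upper pair (4 and 5) is the low one. The marker sum was 5698 to 9022 FPKM in tumours, 2967 to 11630 in Tg spleens and 853 to 1119 in WT spleens, and all 10 markers rose in both comparisons with WT spleens, with medians of 2.77 for tumours and 2.61 for Tg spleens. The parts of dividing cells and of Rpph1 in these member levels were not tested. Within the WT spleens, library 6 had the highest member median (0.13) and the least Myc (191 FPKM).

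**Figure D3:**
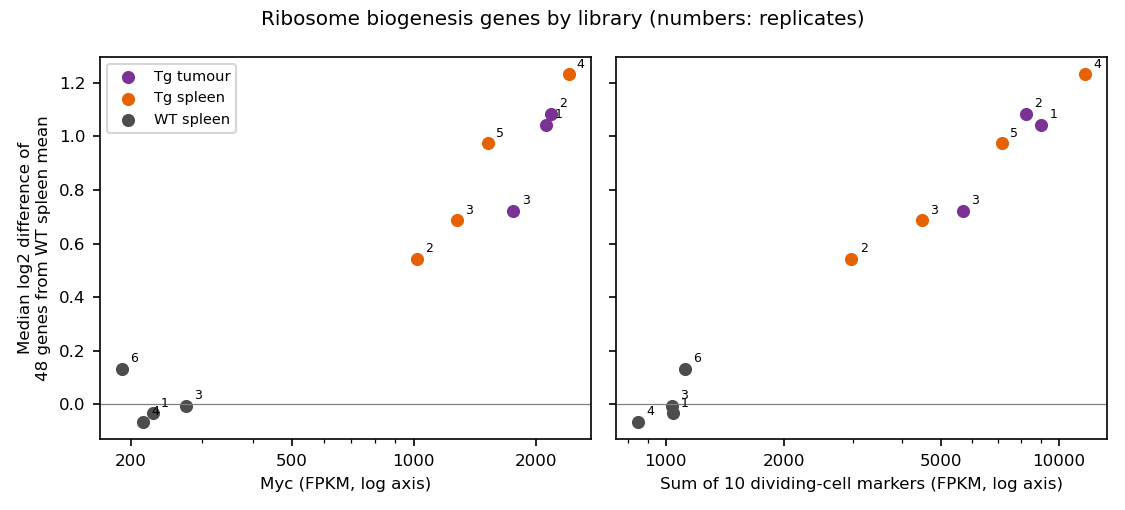
Median log2 difference of the 48 genes from the WT spleen mean (vertical axis) against Myc (left) and the summed dividing-cell markers (right), both in FPKM on log axes, 1 point per library with its replicate number. The 4 WT spleens lie between -0.06 and 0.13 and the 7 Tg libraries between 0.54 and 1.23.

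Other genes of the pathway, listed by role and not by these values, gave further counts. Over all genes, 15.7% were called higher and 12.2% lower in Tg spleens, and 20.3% and 17.7% in tumours. Among other small subunit factors 20 of 35 rose in Tg spleens and 18 of 35 in tumours, with 0 lower in both (medians 0.49 and 0.57). Cirh1a, a processome protein, averaged 369 ± 34.6 FPKM in tumours and 344 ± 94.8 FPKM in Tg spleens, against 149 ± 19.6 FPKM in WT spleens (SD, n = 3, 4 and 4; adjusted p = 0.000515 and 0.00434). Aatf rose in Tg spleens (log2 fold change 0.76, adjusted p = 0.00609) and the RNA acetyltransferase Nat10 in tumours (1.14, adjusted p = 0.00124). Among other large subunit factors 18 of 38 rose in each comparison and 0 fell (medians 0.50 in Tg spleens and 0.44 in tumours). Rsl1d1 reached 1.29 in Tg spleens and 1.42 in tumours (adjusted p = 0.00421 and 0.000619), Rpf2 1.14 in Tg spleens (adjusted p = 0.0037) and Ppan 1.67 in tumours (adjusted p = 0.00039).

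For the polymerase that makes the precursor, 13 genes of the RNA polymerase I machinery were tested. Of these, 10 had a log2 fold change above 0 in Tg spleens and 8 in tumours. By the test 7 rose in each comparison, with 0 lower in Tg spleens and 2 in tumours. Over all genes 12.2% were lower in Tg spleens and 17.7% in tumours, so the few lower genes here do not exceed those shares by much, if at all. Polr1b, a core subunit, rose by 1.23 in Tg spleens and 1.36 in tumours (adjusted p = 0.00267 and 0.00047), and Taf1d, of its promoter selectivity factor, by 0.93 and 1.64 (adjusted p = 0.00286 and 0.000261). The subunit Znrd1 was lower in tumours, at 86.8 ± 75.6 FPKM against 212 ± 9.02 FPKM in WT spleens (log2 fold change -1.62, adjusted p = 0.0274), as was the termination factor Ttf1 (-0.46, adjusted p = 0.0303). In the RNA exosome list, for the nuclease that trims the precursor, 10 of 15 rose and 1 fell in Tg spleens, and 9 rose and 1 fell in tumours. Exosc7 (0.87 and 1.07, adjusted p = 0.00612 and 0.000848) and the nuclease Dis3 (0.88 and 1.19, adjusted p = 0.00803 and 0.00163) rose in Tg spleens and tumours. Zcchc7 fell in both, to 407 ± 113 FPKM in Tg spleens and 384 ± 111 FPKM in tumours, against 608 ± 79.5 FPKM in WT spleens (adjusted p = 0.0473 and 0.033).

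Small nucleolar RNA genes lie within introns of some members. In GENCODE M21, by name and with no coordinates used here, 6 of the 48 enclose 11 named snoRNA genes on their own strand (12.5%), where 0.498% of 11849 protein-coding genes tested in spleens do. Nop56 holds Snord57 and Snord110, Nop58 Snord11 and Snord70, Ncl Snord82 and Snora75, Gnl3 Snord19 and Snord69, Wdr43 Snord53 and Snord92, and Tsr1 Snord91a. Log2 fold changes of these hosts ran from 0.86 to 1.91 in tumours (median 1.52) and from 0.78 to 1.48 in Tg spleens (median 1.04), and those of the other 42 members had medians of 0.93 and 0.77 with wide overlap. Whether reads of the snoRNAs entered the host's FPKM is not given in the sources used here.

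Fibroblasts in which MycER was switched on for hours showed little change of these genes in total RNA. At 4 h, 1 of 48 rose (Rrp9) and 0 fell, where 1.9% of 12934 genes were higher and 2.88% lower. An unadjusted p under 0.05 was reached by 5 members (10.4%) and by 16.4% of genes. The median log2 fold change was 0.10, against -0.04 over all genes, and 37 of 48 were above 0, against 41.7% of all genes. At 8 h 0 of 48 were called (1.21% of genes higher, 0.982% lower; 6 members, or 12.5%, and 12.9% of genes at an unadjusted p under 0.05; median 0.09), and at 16 h 0 again (1.76% higher, 7.75% lower; 2 members, or 4.17%, and 23.5% of genes at an unadjusted p under 0.05). The 16 h median of 0.05 stands beside -0.14 over all genes, and with median ratio scaling, which sets the median of all genes to 0.05, it was 0.25 with 7 members called. That scaling also moved the balance of calls over all genes, from 246 higher and 372 lower to 737 and 712 at 4 h, and from 228 higher and 1002 lower to 977 and 937 at 16 h. Between 16 h and 4 h 0 members were called and 0 genes of any kind (0% higher and 0% lower, 218 genes and 1 member at an unadjusted p under 0.05).

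The fibroblast files have a narrower scale than the B cell files. The highest value of any gene was 139 to 201 FPKM in the 16 total RNA libraries, where the B cell files reach 230300 FPKM or more. Relative to the median gene of the same files, the abundant messages Eef1a1 and Actb stood at 36.6 and 34.2 times in fibroblasts and 2581 and 2147 times in B cells, while Gapdh stood at 35.6 times in fibroblasts and 6.86 times in B cells. Of the 48 members 36 averaged over 50 FPKM, a level that 7.92% of genes exceed, 27 were over 60 and 0 over 100. Among the 1716 genes over 50 FPKM, 0.583% were called higher at 4 h and the middle 80% of log2 fold changes ran from -0.18 to 0.18. The 36 members at this level had a median of 0.09 and the 12 below it 0.13. The source of this ceiling is not given in the sources used here, and its part in the small fold changes was not tested.

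The row labelled Myc fell after OHT, and this row does not measure MycER activity. Whether reads of the MycER construct entered it is not given in the sources used here. Myc had 7.92, 9.51, 11.4 and 14.5 FPKM at 4 h, against 24.4, 29.7, 20.3 and 23.0 FPKM at 0 h (log2 fold change -1.15, adjusted p = 0.000875), and stayed lower at 8 h (-0.94, adjusted p = 0.00811) and 16 h (-1.27, adjusted p = 0.000239). The labels do not say whether the floxed alleles were cut. Dividing-cell markers summed to 593 to 611 FPKM at 0 h, 535 to 599 at 4 h, 544 to 557 at 8 h and 507 to 599 at 16 h, with 0 of 10 called by limma at 4 h (1 at an unadjusted p under 0.05), 0 at 8 h (1) and 1 at 16 h (2). The marker called at 16 h was the cyclin Ccnb2, lower at 50.3 ± 0.422 FPKM against 62.9 ± 3.02 FPKM at 0 h (SD, n = 4 each; log2 fold change -0.32, adjusted p = 0.0207).

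Rrp9, of the U3 snoRNP, was the single member called. Rrp9 had 109, 89.7, 133 and 94.9 FPKM at 4 h, against 82.3, 78.4, 82.9 and 75.3 FPKM at 0 h (log2 fold change 0.40, SE 0.11, adjusted p = 0.0361). All 4 libraries at 4 h lay above all at 0 h, as in 4 members (Rrp9, Nop14, Nop16 and Ebna1bp2) and in 4.37% of genes. It stayed at 117, 95.2, 94.5 and 95.6 FPKM at 8 h and 102, 97.9, 104 and 87.8 FPKM at 16 h, above every 0 h library, without passing the test (log2 fold change 0.33, adjusted p = 0.143 and 0.29, adjusted p = 0.101). Its call at 4 h was lost without any of the 4 libraries at 0 h and without 4 h library 1 or 3 (6 of 8 omissions, adjusted p = 0.0643 to 0.125).

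Next in size at 4 h were 3 genes that missed the threshold. Gar1, of the box H/ACA particle, had 43.4, 40.3, 53.5 and 30.3 FPKM at 4 h, against 30.5, 33.7, 34.3 and 26.9 FPKM at 0 h (log2 fold change 0.39, SE 0.17, adjusted p = 0.253). Nop14 had 85.0, 73.7, 93.5 and 66.6 FPKM at 4 h, against 58.2, 62.2, 66.0 and 56.9 FPKM at 0 h (log2 fold change 0.38, SE 0.12, adjusted p = 0.0891). Ebna1bp2 had 54.6, 68.4, 60.4 and 68.1 FPKM at 4 h, against 44.3, 51.8, 47.1 and 49.7 FPKM at 0 h (log2 fold change 0.38, SE 0.11, adjusted p = 0.0545). Gar1 overlapped between times through library 4, and the other pair did not overlap. Ebna1bp2, a scaffold of the early large subunit precursor, kept its level, with 0.32 at 8 h and 0.31 at 16 h. Nolc1 had 73.7, 104, 88.3 and 96.1 FPKM at 4 h, against 69.5, 73.9, 70.9 and 83.2 FPKM at 0 h (log2 fold change 0.28, adjusted p = 0.173).

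At the low end, Npm1, which led by level in B cells, had 82.9, 82.6, 88.4 and 86.4 FPKM at 4 h, against 78.3, 108, 84.2 and 108 FPKM at 0 h (log2 fold change -0.14, SE 0.11, adjusted p = 0.606). The 0 h libraries fell into a low pair (1 and 3) and a high pair (2 and 4), with the 4 h values between or near the low pair. Dkc1 had 67.8, 69.8, 77.5 and 76.3 FPKM at 4 h, against 64.8, 91.6, 73.3 and 93.5 FPKM at 0 h, with the same split of the 0 h libraries (log2 fold change -0.13, SE 0.12, adjusted p = 0.668). Nop58 had 81.6, 95.8, 96.1 and 99.3 FPKM at 4 h, against 92.7, 91.4, 103 and 104 FPKM at 0 h (log2 fold change -0.07, adjusted p = 0.828). Npm1, Dkc1 and Nop58 did not pass the test, and all overlapped between times. Mrto4 had 55.0, 62.4, 64.6 and 68.8 FPKM at 4 h, against 74.2, 60.6, 73.3 and 59.1 FPKM at 0 h (log2 fold change -0.09, adjusted p = 0.808). Utp3 had 58.2, 56.8, 68.1 and 54.3 FPKM at 4 h, against 55.7, 64.9, 61.4 and 65.9 FPKM at 0 h (log2 fold change -0.07, adjusted p = 0.933). Both were below 0 and overlapped. The 3 modification enzymes stood at about 0. Ftsj3 had 96.6, 92.7, 88.1 and 94.97 FPKM at 4 h, against 93.3, 92.4, 95.5 and 94.1 FPKM at 0 h (log2 fold change -0.01, adjusted p = 0.972). Nop2 had 94.8, 83.8, 103 and 93.3 FPKM at 4 h, against 89.1, 91.0, 91.2 and 100.1 FPKM at 0 h (log2 fold change 0.01, adjusted p = 0.983). Of the initiation pair, Rrn3 was at 70.1, 71.8, 91.0 and 72.9 FPKM at 4 h, against 69.5, 61.5, 73.5 and 72.0 FPKM at 0 h (log2 fold change 0.14, adjusted p = 0.644). Ubtf had 28.7, 33.8, 34.2 and 34.8 FPKM at 4 h, against 29.7, 29.9, 34.0 and 33.8 FPKM at 0 h (log2 fold change 0.04, adjusted p = 0.928).

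**Figure D4:**
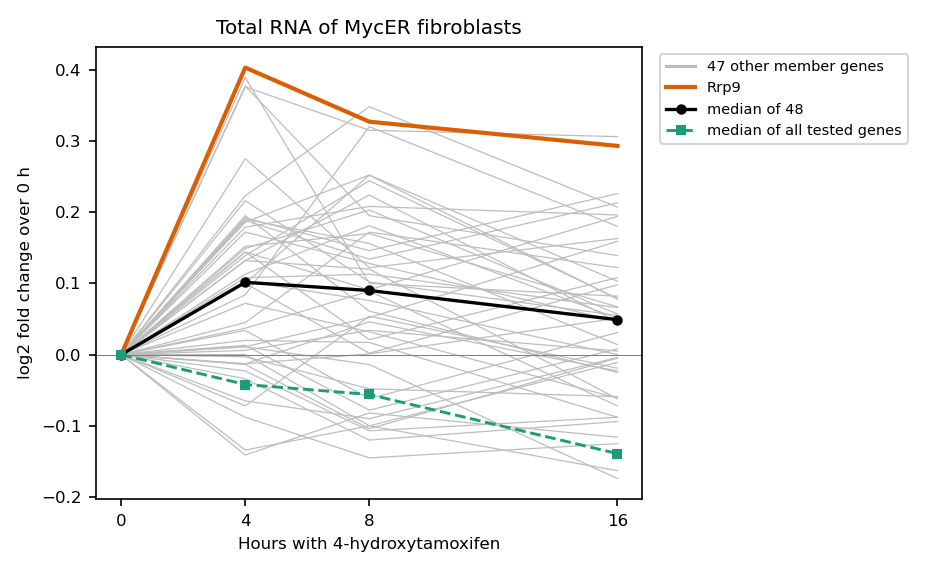
Log2 fold change over 0 h (vertical axis) against hours of OHT for the 48 genes in total RNA (grey lines, Rrp9 in orange), with their median (black) and the median of all genes tested (dashed green). Rrp9 peaks at 0.40 at 4 h, the median of the 48 is 0.10, 0.09 and 0.05, and that of all genes -0.04, -0.06 and -0.14.

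At 4 h limma called 0 of 36 other small subunit factors, 0 of 38 other large subunit factors and 0 of 15 exosome genes. An unadjusted p under 0.05 was reached by 6, 5 and 1 of them, and by 16.4% of all genes. Of 14 genes of the polymerase I machinery, 5 had an unadjusted p under 0.05 and limma called 1. That gene is Taf1c, of the promoter selectivity factor, with 26.9 ± 7.72 FPKM at 4 h against 13.9 ± 3.23 FPKM at 0 h (SD, n = 4 each; log2 fold change 0.91, adjusted p = 0.0169), and 0.71 at 16 h (adjusted p = 0.0443). Ddx10, a helicase of the small subunit list, was called at 16 h (0.32, adjusted p = 0.0304).

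In newly made RNA nearly all members were higher at 4 h of OHT, by small amounts. With 1 library per time there is no test and no replicate check. The ratio of 4 h to 0 h was above 1 for 47 of 48 members, against 53.9% of 12375 genes, and the median log2 ratio was 0.20, against 0.02. Among 3680 genes at the members' level, between 13.3 and 83.3 FPKM, 62.0% were above 1 and the median was 0.05. Past 1.5-fold were 2 members upward and 0 downward, with 4.83% and 3.52% of all genes, and 1.28% of genes at the members' level upward. With median ratio scaling the median fell to 0.15 and 1 member was past 1.5-fold. Dividing-cell markers were above a ratio of 1 for 1 of 10 (median log2 ratio -0.13), and Myc had 25.2 FPKM at 4 h, against 33.1 FPKM at 0 h.

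The pair past 1.5-fold were Imp3 and Rrp9, both proteins that bind or act with U3. Imp3 had 23.7 FPKM at 4 h, against 15.0 FPKM at 0 h (log2 ratio 0.64), and Rrp9 had 40.02 FPKM at 4 h, against 25.8 FPKM at 0 h (0.63). Rrp9 was the 1 member both past this mark and called in total RNA, while Imp3 had 0.19 there (adjusted p = 0.475). The counts of 2 and 1 of 48 are near the shares of all genes, 4.83% past 1.5-fold upward and 1.9% called higher. Among genes at the members' level 1.28% were past 1.5-fold upward. Nop16 (0.43), Rrp12 (0.42) and Nop10 (0.42) came next. Ubtf had 26.6 FPKM at 4 h, against 21.4 FPKM at 0 h (0.31) and Rrn3 had 19.9 FPKM at 4 h, against 16.5 FPKM at 0 h (0.26). Npm1, the most abundant, had 87.8 FPKM at 4 h, against 78.7 FPKM at 0 h (0.16). At the bottom, Fbl and Ftsj3 were both at 0.01, and Utp20 had 20.4 FPKM at 4 h, against 21.4 FPKM at 0 h (-0.07), the single value below 0. By role the medians ran from 0.11 for the modification enzymes to 0.29 for the initiation pair. Across the 48 members, which share libraries and are no replicates, the 4 h log2 values in newly made and total RNA had a Pearson r of 0.44 and a Spearman rho of 0.43.

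**Figure D5:**
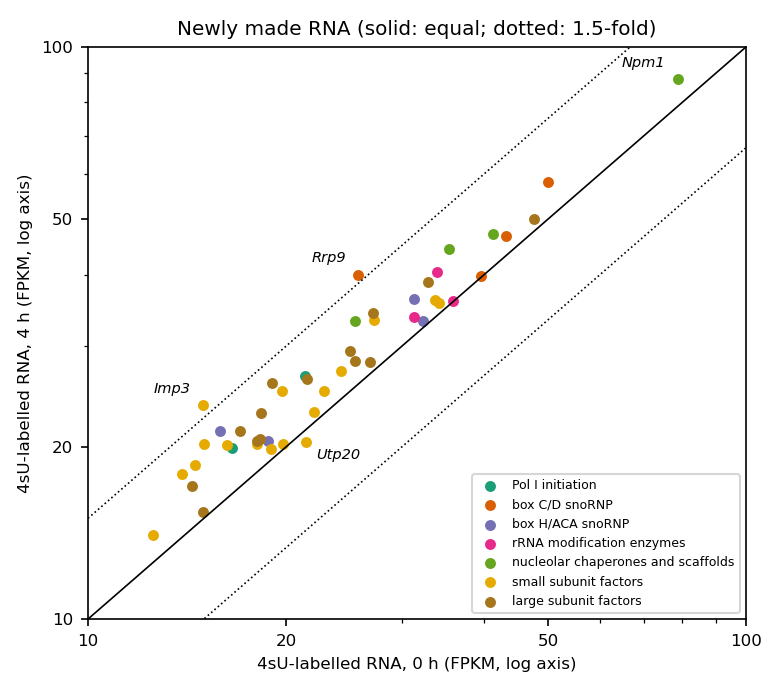
4sU-labelled RNA at 4 h (vertical axis) against 0 h (horizontal axis) in FPKM on log axes, 1 point per gene coloured by role, with lines at equality and at 1.5-fold. Imp3 and Rrp9 lie past the upper dotted line and Utp20 alone lies below equality.

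The other lists moved alike in newly made RNA, with 33 of 36 small subunit factors, 34 of 38 large subunit factors, 12 of 14 polymerase I genes and 13 of 15 exosome genes above a ratio of 1 (medians 0.18, 0.18, 0.18 and 0.19). Taf1c had the highest log2 ratio of these (0.97).

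The ranking of members differed between the systems. Log2 fold changes in Tg spleens and at 4 h of OHT had a Pearson r of -0.07 and a Spearman rho of -0.04 over the 48 members, in libraries with no sample in common. Members with CACGTG in the windows printed above had medians of 0.76 in tumours and 0.61 in Tg spleens over WT (8 of 10 called in each), 0.05 in total RNA at 4 h and 0.12 in newly made RNA. The 32 members with a window and no match had 1.09, 0.96, 0.14 and 0.22, with 25 and 26 called. The ranges of the sets overlapped in all 4 comparisons. Rrn3, with its pair of matches, had 0.20 in tumours and 0.54 in Tg spleens, and Rrp9 and Imp3, which led in newly made RNA, have no match in their windows.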

How the data were processed

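RNA was measured as 1 value per gene and library in 29 libraries. Values are FPKM per the file headers, which the authors deposited without counts or read totals, so the depth behind each value is not known here, and no interval or detection floor is given. Per the submitters' processing notes, reads were handled with TopHat2 2.0.8, TopHat, SAMtools and HTSeq 0.5.3p9 on mm9. Annotation, read filters and strand use are not given in the sources used here. B cell and fibroblast files were normalized separately, and no test was made across them. Their ranges are set side by side only to describe the scale of each.

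A gene entered a test when the number of libraries reaching 1 FPKM was no less than the size of the smaller group. Tests used limma 3.58.1 in R 4.3.3 on log2(FPKM + 0.5), with the trend and robust options of eBayes, and Benjamini-Hochberg adjustment over all genes. B cell pairs had a fit each, while all 16 fibroblast libraries of total RNA shared 1. The 4sU pair has no replicate, so the values are given with a 1.5-fold mark. Script steps were tested on simulated data. Genes, lists and roles were chosen with earlier results of these data known. Named with all values are, for each role, the members with the largest and smallest change in Tg spleens and at 4 h. From each other list come the 2 genes with the smallest adjusted p in each B cell comparison with WT, and any that fell or were called. Some further members are named after their values were seen: Gnl3, Wdr12, Nle1, Nop56, Nop16, Imp3 and those grouped with them. Promoter windows are RefSeq's (GRCm38.p6) and are not on the build of the files. Alternatives were other pseudocounts, filters, scalings, weights and fits, the replicate block, and leaving out libraries. An analysis of genes under 50 FPKM was added after seeing the data.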

Additional observations from a re-analysis of the deposited data

Results flagged for a closer look

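In 288 groups of 4 libraries (48 genes in 6 groups), 17 had a library far from the other 3 by Dixon's 95% limit, which chance alone gives for about 1 in 20 groups. In spleens these were Rrp12 in Tg spleen 4 (250.8 FPKM, the others 145.3 to 147.1 FPKM), Rrn3 in WT spleen 6 (262.9 FPKM, the others 230.1 to 234.7 FPKM) and Nop56 in WT spleen 6 (784.9 FPKM, the others 627.3 to 630.3 FPKM). In fibroblasts at 0 h, library 2 was high for Emg1 (104.716 FPKM), Tsr1 (62.17 FPKM) and Pes1 (85.163 FPKM), and library 3 for Gnl3 (92.833 FPKM). At 4 h, library 3 was high for Rrn3 (91.014 FPKM), Rrp12 (66.406 FPKM) and Nop16 (77.542 FPKM), library 4 for Noc3l (51.434 FPKM), and library 1 was low for Ubtf (28.739 FPKM). At 8 h, library 1 was high for Rrp9 (116.636 FPKM) and library 4 for Ftsj3 (103.079 FPKM), Gnl3 (95.864 FPKM) and Noc3l (51.486 FPKM). At 16 h, library 4 was high for Npm1 (98.43 FPKM).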

How the results depend on the processing

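Members called in Tg spleens over WT spleens numbered 40. The count was 17 with the replicate block, which called 651 of 14199 genes higher. It was 25 within the high Rpph1 set (908 of 14202 genes higher) and 25 to 44 when 1 library was left out (1341 to 2684 genes higher). The median log2 fold change was 1.11 within the low Rpph1 set. In every one of 20 alternatives 47 members stayed above 0, 14 of the 40 calls held in all 20, and 22 were lost in at most 1. For tumours over WT spleens the 39 calls became 0 with the replicate block, which called 0 genes of any kind (3822 at an unadjusted p under 0.05). For 32 of the 39 the block was the only 1 of 17 alternatives that lost the call. The median was 0.94 to 1.13 when 1 library was left out. For tumours over Tg spleens, members called were 1 with quantile normalization, 5 with array weights and 2 with all 3 groups in 1 fit. Over all genes, quantile normalization called 364 higher and 369 lower of 14692, and array weights 1215 and 1145. The fit of all 3 groups called 1056 and 1071 of 15133.

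At 4 h of OHT the count of 1 became 0 without a filter, without trend and robust, or among genes under 50 FPKM, 2 without the libraries numbered 4, 3 with the 2 times alone or with the replicate block, 4 with median ratio scaling, 5 with quantile normalization or array weights, and 0 to 2 with 1 library left out. At 8 h it was 1 with median ratio scaling (median 0.19) or the block, 4 with quantile normalization and 6 with array weights. At 16 h it was 7 with median ratio scaling (median 0.25), 2 with quantile normalization, 1 with array weights or the block, and 0 to 1 with 1 library left out. Over all genes the main fits called 246 higher and 372 lower at 4 h, 156 and 127 at 8 h, and 228 and 1002 at 16 h. With 1 library left out, 145 to 285 genes were higher at 4 h and 155 to 229 at 16 h. Calls over all genes also grew with these scalings and weights. At 4 h they were 858 higher and 905 lower of 12934 with quantile normalization, and 812 and 1735 with array weights. At 8 h they were 675 and 490, and 1074 and 751. At 16 h they were 999 and 1053, and 507 and 1061, and with median ratio scaling 977 and 937. That scaling gave 737 and 712 at 4 h, and 651 and 382 at 8 h. At 4 h, 411 genes were higher and 865 lower without the libraries numbered 4, and 352 and 794 with the 2 times alone. The replicate block gave 408 and 697 at 4 h, 313 and 416 at 8 h, and 349 and 1722 at 16 h. At 4 h, 196 genes were higher without a filter, 246 without trend and robust and 242 among genes under 50 FPKM. In newly made RNA, median ratio scaling left 1 member past 1.5-fold (median 0.15). The causes were not tested. No member's call changed sign.

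The replicate numbers were not taken to pair samples. In spleens they share 2 numbers, with correlations of deviations of 0.13 and 0.14. In fibroblasts the correlation with the 0 h partner was 0.02 to 0.07 for number 3 and 0.16 to 0.22 for numbers 1 and 2. Libraries numbered 4 correlated more, at 0.43 at 4 h, 0.40 at 8 h and 0.50 at 16 h. Some shared structure by number is thus possible in fibroblasts. The block fits in the spleens and tumours keep few libraries.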
